A study of Mus musculus with 11 samples.

Results

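The forkhead (Fox) transcription factor genes of the mouse were followed across 11 peak lists of histone marks from stomach glands. Members were all protein-coding genes of the RefSeq table for GRCm38 whose symbol is Fox with a letter from a to s and a number, which gave 44 of 21887 genes. For each gene and library, peaks within 1 kb of either gene end were counted as promoter peaks. All other peaks in the gene body plus 50 kb on each side were counted as its neighbourhood.

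The libraries were chromatin immunoprecipitations from glands of the mouse stomach, 8 for H3K27ac (acetylated lysine 27 of histone H3, found at active promoters and enhancers) and 3 labelled H3K4me3 (trimethylated lysine 4, found at promoters). The groups were wild type, Atp4bCre; Rosa26NICD (NICD, called control in the titles), Atp4bCre; Rosa26NICD; Arid1aflox/+ (1-allele) and Atp4bCre; Rosa26NICD; Arid1aflox/flox (2-allele), with 2 H3K27ac libraries each. NICD stands for the intracellular domain of Notch, its active form, and Arid1a encodes a subunit of the SWI/SNF chromatin remodeler. Both Arid1a-floxed groups also carried Atp4bCre and Rosa26NICD, so wild type differs from them in all of these alleles. The 3 H3K4me3 libraries were 1 wild type, 1 NICD and 1 Arid1a-floxed, and for the last the title names a heterozygote but the genotype field names flox/flox, which leaves its number of floxed alleles unresolved. The Cre transgene is driven by the promoter of Atp4b, a parietal cell gene, and neither the share of recombined cells nor the age of the mice is stated. Fixed pellets were pooled to gather enough material, so libraries of a group may not be separate animals.

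Forkhead proteins bind DNA through a winged-helix domain. FOXA1, FOXA2 and FOXA3 are pioneer factors of endoderm that open chromatin in gut-derived epithelia, FOXQ1 is needed for mucin production in surface mucous cells of the mouse stomach, FOXM1 drives genes of mitosis, and the FOXO proteins are held out of the nucleus by insulin and AKT signalling. Other members are regulators of mesenchyme (FOXF, FOXC), multiciliated cells (FOXJ1) or single organs, such as FOXE1 in the thyroid.

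The lists differed in length, and this bears on every count below. Wild type held 20590 and 18360 peaks, NICD 41405 and 25442, 1-allele 5165 and 7602, and 2-allele 15362 and 14373. For H3K4me3 the lengths were 17558 (wild type), 39420 (NICD) and 5175 (Arid1a-floxed). Reads after duplicate removal ranged from 7.96 M in NICD replicate 2, whose redundant rate of 0.52 set it apart, to 20.81 M in the wild-type H3K4me3 library, and no read number is given for the 2-allele lists. The order of list lengths was not the order of read numbers. Among 16 markers of gastric epithelium, 9 and 10 had an H3K27ac promoter peak in wild type, 12 and 8 in NICD, 5 and 2 in 1-allele and 7 and 6 in 2-allele. Atp4b itself had a promoter peak in wild type, in each library, and in neither NICD library, beside 0.114% of all genes. Elf3, another of the 16, went the other way, with a peak in both NICD libraries and neither wild-type one, beside 3.83% of all genes. Among markers of other cells, 0 to 3 of 15 genes of fibroblasts and smooth muscle, 0 to 1 of 10 of endothelium, 0 to 5 of 12 of leukocytes, 0 to 2 of 6 of ciliated cells and 0 to 1 of 6 of neurons and enteroendocrine cells were called in any H3K27ac library. The share of these other cells in each sample was not tested.

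RefSeq promoter sequences (GRCm38.p6, 300 bases around a start site) were on hand for 28 of the 44 genes, or 63.6%, too few for a check of sequence over the whole family. They are shown for the stomach endoderm genes Foxa1 and Foxa3, and for Foxc1 and Foxn4, whose promoter calls separated groups. The sequence of Foxa1 (chr12:57546062-57546361, minus strand) is shown first with the forkhead motif TGTTTAC in capitals, read on either strand. It was the only one of 33 forkhead promoter sequences to hold that motif, which was found in 3.65% of all 32851 promoter sequences. Foxc1 (chr13:31806396-31806695, plus strand) is shown with the core motif of RBPJ, the DNA-binding partner of NICD, TGGGAA, in capitals. This motif was in 6 of 33 forkhead sequences and in 25.6% of all sequences. Foxa3 (chr7:19023490-19023789) and Foxn4 (chr5:114273712-114274011), both on the minus strand, are shown with GC boxes, GGGCGG, in capitals. GC boxes were in 24 of 33 forkhead sequences and in 35.7% of all. Each line marks a single motif, and of the motifs searched only the RBPJ match of Foxc1 overlapped another, a CCAAT match (CCAAT was in 15 of 33 forkhead sequences and in 37.4% of all).
Foxa1: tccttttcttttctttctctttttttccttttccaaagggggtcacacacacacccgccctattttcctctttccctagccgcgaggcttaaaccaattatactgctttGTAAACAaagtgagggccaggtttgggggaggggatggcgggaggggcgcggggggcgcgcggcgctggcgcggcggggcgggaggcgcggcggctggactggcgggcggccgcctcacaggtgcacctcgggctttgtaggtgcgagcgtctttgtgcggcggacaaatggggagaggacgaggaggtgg
Foxc1: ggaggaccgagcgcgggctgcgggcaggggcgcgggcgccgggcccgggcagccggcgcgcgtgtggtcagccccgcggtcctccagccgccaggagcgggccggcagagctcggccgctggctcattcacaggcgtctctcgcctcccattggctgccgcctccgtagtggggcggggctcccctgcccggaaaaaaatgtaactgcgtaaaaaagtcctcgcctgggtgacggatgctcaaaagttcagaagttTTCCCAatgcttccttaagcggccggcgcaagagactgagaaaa
Foxa3: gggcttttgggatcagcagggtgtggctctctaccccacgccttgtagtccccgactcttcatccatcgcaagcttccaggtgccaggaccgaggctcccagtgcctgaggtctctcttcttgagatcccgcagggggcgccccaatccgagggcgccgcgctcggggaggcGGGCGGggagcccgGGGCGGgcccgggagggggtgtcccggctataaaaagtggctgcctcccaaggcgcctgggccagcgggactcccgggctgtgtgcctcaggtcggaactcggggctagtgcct
Foxn4: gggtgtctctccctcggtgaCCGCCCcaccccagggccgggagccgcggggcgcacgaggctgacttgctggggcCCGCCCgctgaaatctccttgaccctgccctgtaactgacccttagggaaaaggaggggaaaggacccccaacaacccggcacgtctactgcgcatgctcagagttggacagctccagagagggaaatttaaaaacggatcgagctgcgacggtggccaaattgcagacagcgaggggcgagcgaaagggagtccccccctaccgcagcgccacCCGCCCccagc
All of these windows were rich in CpG, with 26 in Foxa1, 32 in Foxc1, 22 in Foxa3 and 22 in Foxn4, beside a median of 7 over all promoter sequences and an upper quartile of 20. An H3K27ac peak covered part of the Foxa1 window in both NICD libraries and in 2-allele replicate 2. The Foxa3 window was reached by a peak of NICD replicate 1 alone, and no H3K27ac peak reached those of Foxc1 and Foxn4, whose peaks lay to one side. The H3K4me3 list of NICD overlapped all 4 windows and the other H3K4me3 lists none of them.

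Promoter H3K27ac was found at about the same share of forkhead genes as of all genes in wild type, and the shares of the other groups are given below as a description, with no test. Of the 44 genes, 19 and 18 were called in the wild-type libraries, 22 and 17 in NICD, 8 and 10 in 1-allele, and 14 and 15 in 2-allele. As means these were 18.5 ± 0.707 in wild type, 19.5 ± 3.54 in NICD, 9.0 ± 1.41 in 1-allele and 14.5 ± 0.707 in 2-allele (SD, n = 2). In shares of the family, the wild-type libraries stood at 43.2% and 40.9%, beside 43.1% and 40.9% of all genes. NICD stood at 50.0% and 38.6% beside 53.0% and 47.3%, 1-allele at 18.2% and 22.7% beside 16.1% and 25.8%, and 2-allele at 31.8% and 34.1% beside 42.6% and 41.2%. The 1-allele libraries were lowest and did not overlap the other groups, and these are the libraries with the shortest lists. With every list shortened to its strongest 14373 peaks, wild type had 16 and 16 forkhead genes, NICD 14 and 12, and 2-allele 14 and 15, while both 1-allele lists were already shorter. At that length the forkhead share was 36.4% in both wild-type libraries beside 37.3% and 36.9% of all genes, and 31.8% and 27.3% in NICD beside 41.9% and 40.0%. A two-sided exact permutation test of 2 libraries against 2 cannot give a p below 0.333, so no pair of groups can pass in that form.

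**Figure D1:**
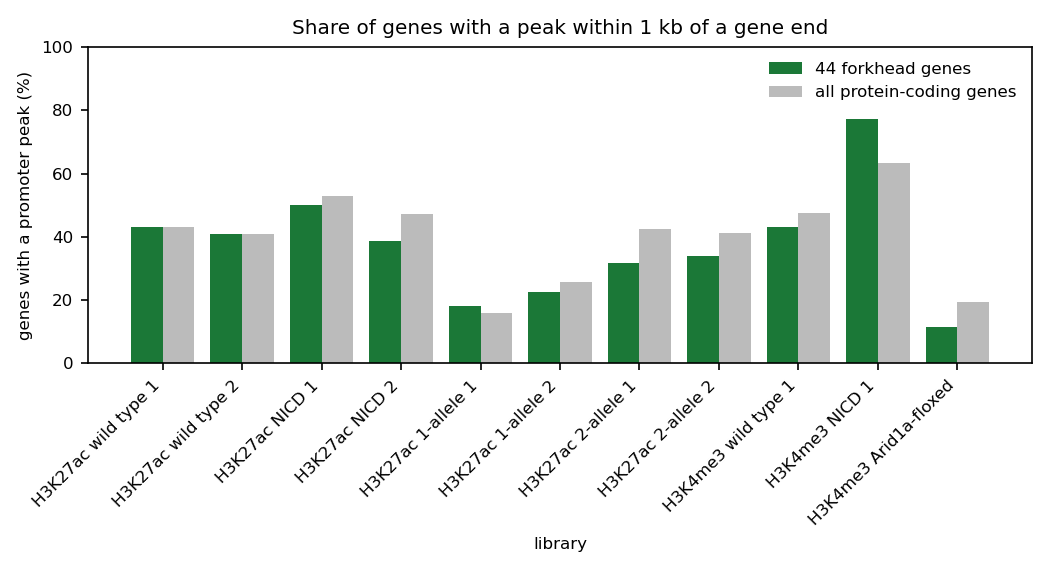
Share of genes with a promoter peak (y axis, percent) in each of the 11 libraries (x axis), for the 44 forkhead genes (green bars) and all protein-coding genes (grey bars). The 2 bars are level in wild-type H3K27ac, and the forkhead bar stands above the other most clearly in NICD H3K4me3 (77.3% against 63.5%).

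Across the 8 H3K27ac libraries some forkhead genes were always called and a larger set never was, in shares close to those of all genes. Foxj2, Foxj3, Foxm1, Foxo1, Foxo3, Foxp4 and Foxq1 had a promoter peak in every H3K27ac library, which is 7 genes or 15.9% beside 13.4% of all genes. With all lists at 5165 peaks, Foxo3 and Foxj3 were still called in all 8, Foxj2 in 7, Foxm1 in 6, Foxp4 in 5, Foxq1 in 4 and Foxo1 in 3. Foxa3, Foxk2, Foxn2 and Foxp1 were called in 7 libraries and Foxk1 in 6. No library called 21 genes, or 47.7% beside 45.5% of all genes, among them Foxb1, Foxb2, Foxc2, Foxd1, Foxd3, Foxd4, Foxe1, Foxe3, Foxf1, Foxf2, Foxi1, Foxi2, Foxi3, Foxl1, Foxl2, Foxn1, Foxp3, Foxr1 and Foxr2. The never-called set includes Foxf1 and Foxf2 of gut mesenchyme, Foxp3 of regulatory T cells and Foxn1 of thymic epithelium. A gene without a peak in these lists is not shown to lack the mark, only to have had none detected at this depth.

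**Figure D2:**
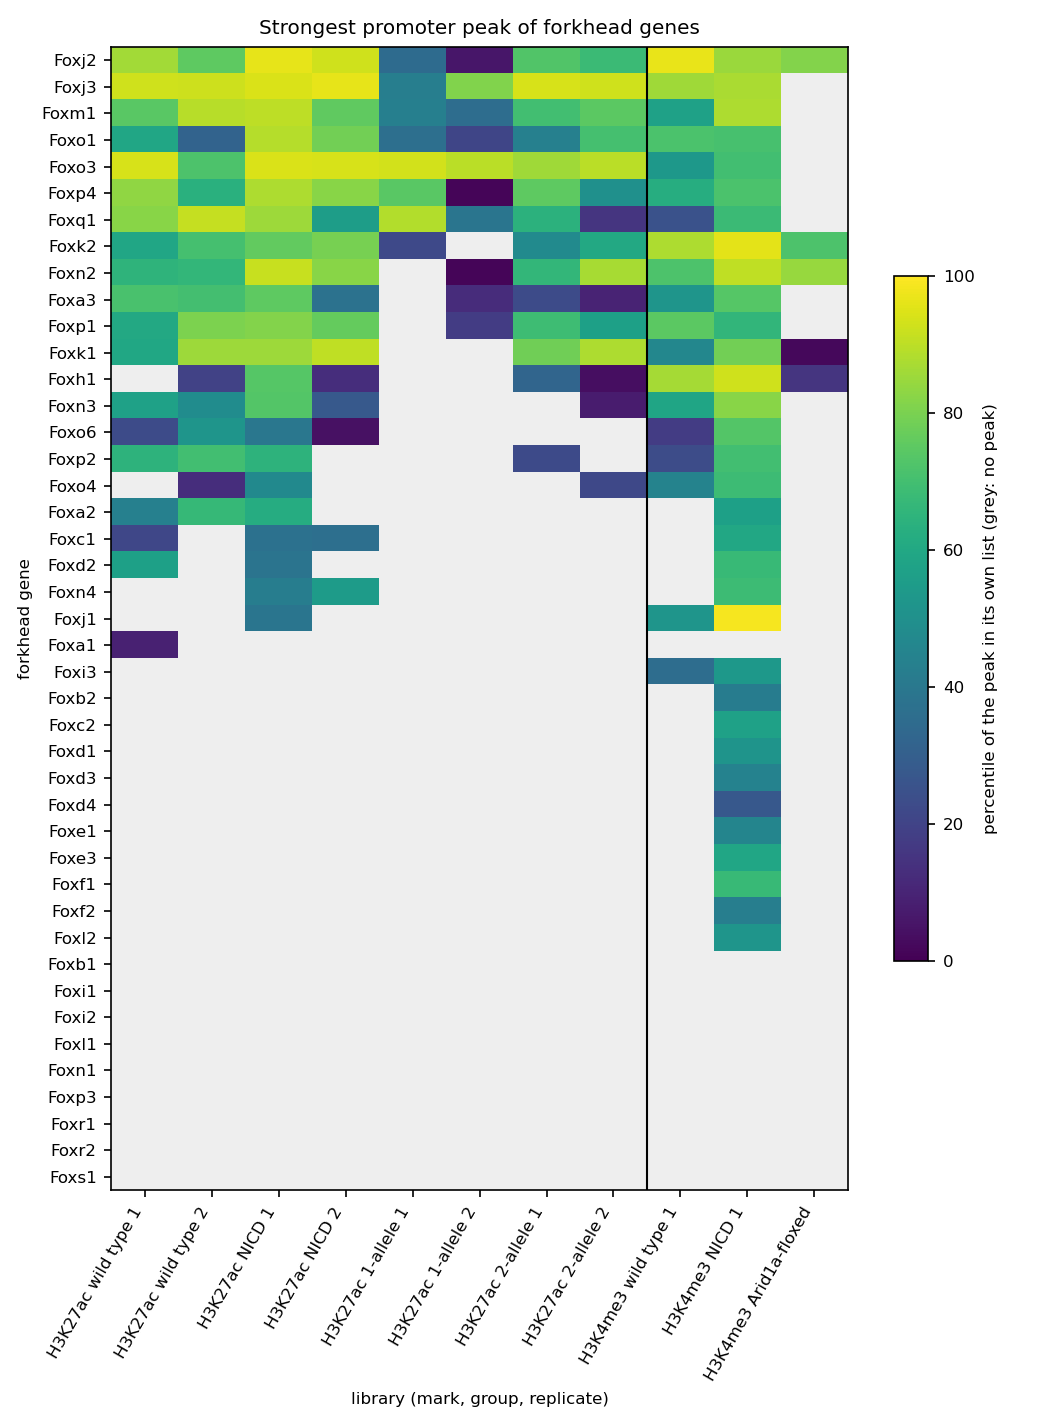
Strongest promoter peak of the forkhead genes shown (rows) in each library (columns), as its percentile in that library's own list (colour, 100 is the strongest peak of the list, grey is no peak). The 7 genes at the top are coloured in all 8 H3K27ac columns, and the block at the lower right shows genes coloured in the NICD H3K4me3 column alone.

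Foxo3, a FOXO factor of stress response and quiescence, carried the most evenly strong promoter peak. Peak strength is given here as the percentile of a gene's strongest promoter peak in its own list, by the authors' q-values or, in the 2-allele lists without scores, by file order. A longer list holds more weak peaks, which raises the percentile of the same peak, so percentiles of lists of different length are set side by side only as a description. Foxo3 stood at percentiles 93.9 and 72.2 in wild type, 94.5 and 93.8 in NICD, 93.0 and 89.7 in 1-allele, and 85.6 and 89.8 in 2-allele. All libraries but wild-type replicate 2 lay above 85, and the 1-allele values lay within the range of the other groups. Foxo1, a sensor of insulin signalling, was weaker, at 59.0 and 31.7 in wild type, 88.9 and 78.8 in NICD, 36.5 and 20.8 in 1-allele, and 43.6 and 70.5 in 2-allele. Its NICD values were the highest, in the 2 longest lists. Foxo6, a FOXO factor best known from brain, was called at 22.7 and 52.3 in wild type and 39.8 and 4.6 in NICD and in none of the other H3K27ac lists. Foxo4 was called in 3 libraries, with a highest percentile of 47.3 in NICD replicate 1.

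Foxm1, the driver of mitotic genes, had a promoter peak in every H3K27ac library, in the merged region chr6:128362247-128363155. A merged region joins overlapping H3K27ac peaks of the 8 libraries in a chain, so peaks of 2 libraries in it need not overlap each other. The promoter peak of Foxm1 also lay within 1 kb of an end of the neighbouring gene Rhno1, so the 2 promoters cannot be told apart. Its percentiles were 74.5 and 89.2 in wild type, 90.1 and 75.5 in NICD, 43.2 and 35.8 in 1-allele, and 69.9 and 74.7 in 2-allele. The 1-allele values were the lowest, and wild type overlapped both NICD and 2-allele. The authors' fold enrichment of its peak over local background was 6.53 and 7.73 in wild type, 8.81 and 7.10 in NICD, and 5.32 and 4.87 in 1-allele. The full width of the peak was 493 and 457 bp in wild type, 869 and 909 in NICD, 240 and 387 in 1-allele, and 415 and 790 in 2-allele.

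Foxq1, the factor of surface mucous cells, kept its promoter peak in all 8 lists, in the region chr13:31558417-31560213 that spans most of the gene. Its strongest promoter peak stood at percentiles 82.3 and 91.4 in wild type, 85.4 and 55.8 in NICD, 88.5 and 38.9 in 1-allele, and 64.4 and 15.4 in 2-allele, where the value of NICD replicate 2 belongs to a second region named below. Both wild-type values were high, and the 2 libraries of each other group were far apart. The summed full width of its promoter peaks was 1290 and 1176 bp in wild type, 2401 and 1894 in NICD, 853 and 427 in 1-allele, and 1221 and 300 in 2-allele. The NICD values were the highest, and 2-allele overlapped both wild type and 1-allele. In 2-allele replicate 2 another peak of this region, at percentile 21.1, lay more than 1 kb from both gene ends. By the rule it counted for the neighbourhood and is left out of these values. A second promoter region, chr13:31557394-31557997, was called in both NICD H3K27ac libraries and the NICD H3K4me3 library alone.

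Among the endoderm factors, Foxa3 was the most often called at the promoter, in 7 of 8 libraries, and a promoter peak was shared with the neighbour Sympk. Its strongest promoter peak stood at percentiles 71.4 and 70.2 in wild type, 75.0 and 37.7 in NICD, 12.8 in 1-allele replicate 2, and 22.9 and 9.9 in 2-allele. In wild type that peak was at the far end of the gene, in chr7:19011859-19012492, whereas in NICD it was at the start, in chr7:19022927-19023507. The start region was called in 7 libraries, at 52.2 and 37.0 in wild type.

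Foxa2, which marks foregut endoderm, had peaks within 1 kb of a gene end in wild type, in each library, at percentiles 43.4 and 67.1, and in NICD replicate 1 at 61.9. The wild-type peaks lay at the 3′ end of the gene. It was called in no 1-allele or 2-allele library, so by this rule it separated wild type from both of these groups. A further region inside the gene, chr2:148044491-148045623, had peaks at percentiles 61.9 and 54.3 in wild type, 54.3 and 48.2 in NICD, and 16.3 in 2-allele replicate 1. Foxa1 has an annotated outer end beyond the start listed with its promoter sequence, and within 1 kb of the outer ends it had a peak in wild-type replicate 1 alone, at the 3′ end. With the listed starts added, Foxa1 was called in 5 of 8 libraries and Foxa2 in 5 of 8. Both were then called in both NICD libraries and in neither 1-allele library, and the choice of start thus decides the call at these genes. The peak over the printed Foxa1 sequence, in chr12:57546095-57546671, stood at percentiles 64.0 and 62.0 in NICD and 33.6 in 2-allele replicate 2, with fold enrichments of 2.56 and 3.14 in NICD.

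Comparing groups, a gene was counted as separating when both libraries of one group and neither of the other had a promoter peak. NICD against wild type separated Foxn4 alone, a factor of retinal and spinal neuron progenitors, which is 2.27% of the family beside 3.83% of all genes. Foxn4 stood at percentiles 42.5 and 54.8 in the NICD libraries, in chr5:114274329-114274773, with fold enrichments of 5.50 and 7.07, and had no peak in the other 6 H3K27ac libraries. No forkhead gene had the reverse pattern, peaks in both wild-type libraries and in neither NICD one, beside 0.114% of all genes. At the equal length of 14373 peaks no gene was separated for NICD (2.38% of all genes). Foxa2 and Foxp2 were then separated for wild type (0.589% of all genes). In the full lists both genes also had a promoter peak in NICD replicate 1, at percentiles 61.9 and 64.7, which the shortening left out. The Foxa2 call rests on the peaks at its 3′ end. The region inside the gene, chr2:148044491-148045623, near a listed start, was at that length still called in both wild-type lists and in NICD replicate 2.

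NICD against 1-allele separated 6 genes, Foxc1, Foxh1, Foxk1, Foxn3, Foxn4 and Foxo6, or 13.6% beside 18.8% of all genes, and none in the other direction beside 0.00914% of all genes. Foxk1, a repressor of autophagy genes, had the strongest peaks of the 6, at percentiles 59.7 and 85.5 in wild type, 85.4 and 90.6 in NICD, and 78.3 and 87.5 in 2-allele. It was the only one of the 6 that separated NICD from 1-allele when the lists outside the 1-allele group were brought to 14373 peaks, a length still above that of both 1-allele lists. It no longer did so with a promoter window of 2.5 kb or with all lists at 5165 peaks, where Foxn2 alone separated them. Foxc1, a mesenchymal factor, was called at 21.1 in wild-type replicate 1 and at 37.4 and 36.4 in NICD. Foxn3, a checkpoint factor, was called at 57.2 and 48.8 in wild type, 73.2 and 27.9 in NICD, and 7.6 in 2-allele replicate 2. Without NICD replicate 2, the count of NICD against 1-allele rose to 11, and such a count can only stay or rise when a library is left out.

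NICD against 2-allele separated 3 genes, Foxc1, Foxn4 and Foxo6, or 6.82% beside 3.8% of all genes, and at equal length none. The reverse direction held no forkhead gene beside 0.0228% of all genes. The 2-allele and 1-allele groups were separated at Foxh1 and Foxk1, called in 2-allele, which is 4.55% of the family beside 12.0% of all genes, with none in the other direction beside 0.0411%. Foxh1, a partner of SMAD proteins in nodal signalling, has an end within 1 kb of peaks that also lie at Ppp1r16a, and its percentiles of 32.6 and 3.9 in 2-allele were low. Wild type against 1-allele separated Foxa2, Foxk1, Foxn3, Foxo6 and Foxp2, or 11.4% beside 11.1% of all genes. Wild type against 2-allele separated Foxa2 and Foxo6, or 4.55% beside 1.41%, and none the other way beside 1.29%. With the listed starts added, 2-allele replicate 1 was also called at Foxa2, which then no longer separated these groups. The Foxo6 peak of wild-type replicate 1 stood at percentile 22.7. Shortening that list to 14373 peaks left out even a peak at percentile 25.4, and so the Foxo6 peak too. At that length Foxo6 therefore separated wild type from neither floxed group. The share of all genes with these patterns was not taken at that length.

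In the full lists the forkhead share with H3K4me3 was above that of all genes in NICD and below it in the other libraries, with 1 library per group and no replicate check. Of the 44 genes, 19 (43.2%, beside 47.4% of all genes) had an H3K4me3 promoter peak in wild type, 34 (77.3%, beside 63.5%) in NICD and 5 (11.4%, beside 19.5%) in the Arid1a-floxed library. All 19 genes called in wild type were also called in NICD, and another 15 were called in NICD and not in wild type, or 34.1% beside 16.2% of all genes. Among these 15 were Foxa2, Foxc1, Foxc2, Foxd1, Foxd2, Foxd3, Foxd4, Foxe1, Foxe3, Foxf1, Foxf2 and Foxn4. Most are factors of mesenchyme, neural crest or single organs. With the listed starts added the count was 14, because Foxa2 was then called in wild type too. No forkhead gene went the other way, beside 0.0731% of all genes. With the NICD list shortened to the 17558 strongest peaks, the length of the wild-type list, 25 forkhead genes (56.8%) were called in NICD beside 55.2% of all genes, so most of the gap of the full list was gone. The genes in NICD and not in wild type were then 7, namely Foxa2, Foxc1, Foxc2, Foxd2, Foxe3, Foxf1 and Foxn4, or 15.9% beside 8.38% of all genes.

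Within the NICD H3K4me3 list, genes called there and nowhere for H3K27ac were 12 of 44, or 27.3% beside 10.3% of all genes. Among them were Foxc2, Foxd1, Foxd3, Foxd4, Foxe1, Foxe3, Foxf1, Foxf2 and Foxi3. With the NICD list shortened to 17558 peaks the count was 3, or 6.82% beside 4.45%. In the full lists, of forkhead genes without any H3K27ac promoter peak, 57.1% had H3K4me3 in NICD beside 22.6% of all such genes, and 4.76% beside 3.19% in wild type. Foxf1, a factor of visceral mesenchyme, stood at percentile 67.3 of the NICD list with a promoter peak 1259 bp wide. Foxe3 of the lens stood at 59.1 with a width of 822 bp, and Foxd4 lowest at 27.5 with 311 bp. In the same list 10 of 15 markers of fibroblasts and smooth muscle, 5 of 10 of endothelium and 6 of 12 of leukocytes had a promoter peak, against 1, 1 and 1 in wild type, where the shares of all genes were 63.5% and 47.4%, and their part in the result was not tested. The 15 markers of fibroblasts and smooth muscle had 3 H3K27ac promoter peaks at most, in NICD replicate 1.

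Foxj1, the switch gene of multiciliated cells, had the strongest H3K4me3 promoter peak of the family in NICD, at percentile 98.7 and a fold enrichment of 18.09, against 52.2 and 5.72 in wild type. It had an H3K27ac promoter peak in NICD replicate 1 alone, at percentile 38.7. The peak also lay near an end of the neighbour Rnf157. Of 6 ciliated cell markers, Mcidas and Rfx2 had an H3K27ac promoter peak in both NICD libraries and in none of the other 6. The other 4 markers had none in any H3K27ac library, and NICD against wild type separated 3.83% of all genes. H3K4me3 was called at 4 of the 6 markers in NICD and 2 in wild type, beside 63.5% and 47.4% of all genes. Foxh1, Foxj2, Foxk1, Foxk2 and Foxn2 were called for H3K4me3 in all 3 libraries, or 11.4% beside 19.3% of all genes. No forkhead gene had H3K4me3 in all 3 libraries and H3K27ac in none. Neither mark was found in any library at Foxb1, Foxi1, Foxi2, Foxl1, Foxn1, Foxp3, Foxr1, Foxr2 and Foxs1, which is 9 genes or 20.5% beside 35.2% of all genes.

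Away from promoters, the number of peaks in forkhead neighbourhoods was highest in NICD and lowest in 1-allele, in the order of the list lengths. Counting each peak once, the H3K27ac lists held 88 and 68 neighbourhood peaks in wild type, 186 and 105 in NICD, 20 and 19 in 1-allele, and 63 and 51 in 2-allele. The means were 78.0 ± 14.1 in wild type, 145.5 ± 57.3 in NICD, 19.5 ± 0.71 in 1-allele and 57.0 ± 8.49 in 2-allele (SD, n = 2). Per 10000 listed peaks they were 39.9 ± 4.03, 43.1 ± 2.55, 31.9 ± 9.69 and 38.3 ± 3.89 in the same order. Wild type overlapped every other group, and both NICD values lay above those of 1-allele and 2-allele. With the lists outside the 1-allele group at 14373 peaks, the means were 56.5 in wild type and 58.0 in NICD. The H3K4me3 lists held 75 in wild type, 198 in NICD and 15 in the Arid1a-floxed library.

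The number of peaks per 10000 listed was tested over the 4 H3K27ac groups for each gene with a neighbourhood peak. The exact permutation test over all 105 ways to pair the 8 libraries has a smallest p of 0.00952. Of 16837 genes none had an adjusted p under 0.05 (0.0%, Benjamini-Hochberg over all genes), and the smallest adjusted p was 0.154, so no forkhead gene passed. At an unadjusted p under 0.05 there were 9 of 34 forkhead genes tested, 26.5% beside 17.1% of all genes. Foxc2, Foxd1, Foxf1, Foxh1, Foxl1, Foxl2 and Foxp3 were at the smallest p the exact permutation test allows. For 6 of these 7 the counts were small. Foxc2, Foxf1 and Foxl1 share 1 peak, found in neither 1-allele list, and Foxd1, Foxl2 and Foxp3 have 0 to 2 peaks in each list. At such counts the density moves with the list length it is divided by, as well as with the count. The part of each was not tested. Foxh1 had 7 and 4 peaks in wild type, 16 and 9 in NICD, 1 and 0 in 1-allele, and 6 and 6 in 2-allele, and 10 of the 17 regions in its neighbourhood lie at ends of other genes.

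**Figure D3:**
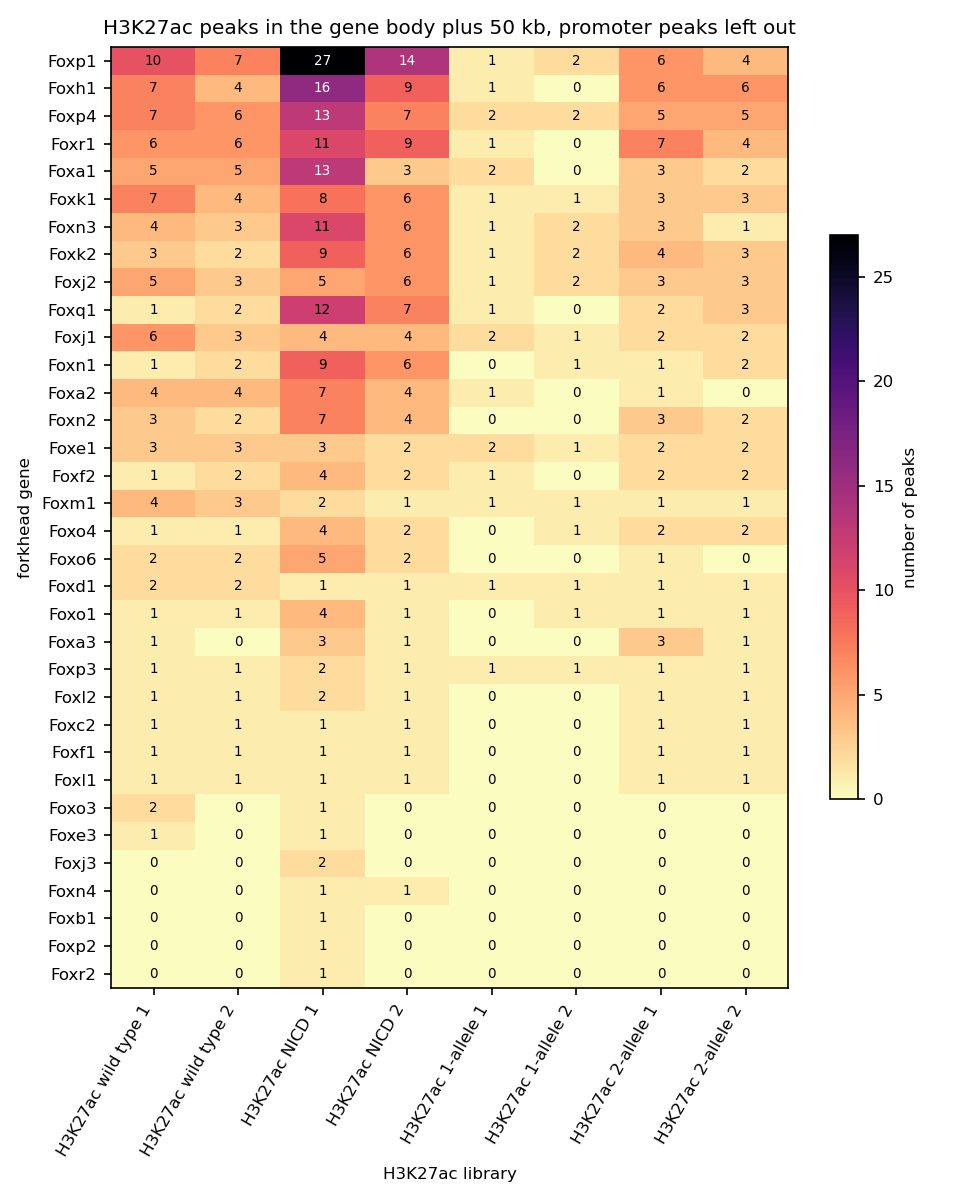
Number of H3K27ac peaks (printed in each cell and shown by colour) in the gene body plus 50 kb of the 34 forkhead genes with at least 1, promoter peaks left out, by library (columns). Foxp1 leads with 27 in NICD replicate 1, and the 1-allele columns hold 0 to 2 per gene.

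Foxp1, a repressor active in many epithelia and in B cells, had the most neighbourhood peaks, 71 over the 8 libraries, in a gene body of 597405 bp. It held 10 and 7 in wild type, 27 and 14 in NICD, 1 and 2 in 1-allele, and 6 and 4 in 2-allele. The NICD libraries were highest and no group overlapped another. Per 10000 listed peaks this was 4.34 ± 0.738 in wild type, 6.01 ± 0.72 in NICD, 2.28 ± 0.491 in 1-allele and 3.34 ± 0.794 in 2-allele (SD, n = 2), with p = 0.019 in the exact permutation test and an adjusted p of 0.207. In lists shortened to the shortest, of 5165 peaks, the exact permutation test gave p = 0.429 for Foxp1. Its neighbourhood resolved into 33 merged regions, of which 6 separated NICD from wild type and 1 wild type from NICD, beside 14.4% and 0.66% of all regions away from gene ends. The region chr6:99172215-99173354, within the gene, stood at percentiles 72.9 and 16.1 in wild type, 72.3 and 39.0 in NICD and 16.5 in 1-allele replicate 2, and was absent from both 2-allele lists.

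Foxp4, a relative of Foxp1 in lung and gut epithelium, held 7 and 6 neighbourhood peaks in wild type, 13 and 7 in NICD, 2 and 2 in 1-allele, and 5 and 5 in 2-allele. Foxr1, itself never called at the promoter, held 6 and 6 in wild type, 11 and 9 in NICD, 1 and 0 in 1-allele, and 7 and 4 in 2-allele, and 5 of its 9 regions lie at ends of other genes. Foxk1 held 7 and 4 in wild type, 8 and 6 in NICD, 1 and 1 in 1-allele, and 3 and 3 in 2-allele. In each of these the 1-allele libraries were lowest. Foxm1 had 4 and 3 peaks in wild type, 2 and 1 in NICD, and 1 in each of the other 4 libraries, at p = 0.0381 in the exact permutation test of density and an adjusted p of 0.246. These peaks fall into 2 merged regions, both at ends of other genes, and 1 of them was called in all 8 libraries, so the count rests on how many peaks a region was split into. Covered length was 716 and 843 bp in wild type and 1198 and 508 bp in NICD, and overlapped.

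Around Foxq1, neighbourhood peaks were most numerous in NICD, with 1 and 2 in wild type, 12 and 7 in NICD, 1 and 0 in 1-allele, and 2 and 3 in 2-allele. The NICD libraries did not overlap the others. Of the 3 peaks in 2-allele replicate 2, 1 lies inside the promoter region. Densities were 0.787 ± 0.427 per 10000 in wild type and 2.83 ± 0.104 in NICD, with p = 0.2 in the exact permutation test over the 4 groups and an adjusted p of 0.433. The exact permutation test on plain numbers of peaks, which are not divided by list length, gave p = 0.0381. Several settings were tried, and in none was the adjusted p of Foxq1 under 0.05. Of 11 merged regions outside its promoter, 5 were called in both NICD libraries and in no other H3K27ac library. They lie at chr13:31515653-31516256, chr13:31531843-31532435, chr13:31547941-31548434, chr13:31567099-31567678 and chr13:31568009-31568286. NICD against wild type separated 14.4% of all regions away from gene ends. No share over all regions was taken for the stricter pattern, absent also from both floxed groups. The first of the 5 regions stood at percentiles 68.6 and 79.9 in the NICD lists and the third at 74.4 and 48.2. These 2 were still called in both NICD lists and neither wild-type list at 14373 peaks, beside 2.36% of all regions away from gene ends. The other 3 had percentiles from 31.1 to 54.4 and were lost from one or both NICD lists at that length. The merged region chr13:31578126-31579162 held peaks of the most libraries, 6, at 30.0 in wild-type replicate 2, 78.0 and 69.0 in NICD, 36.4 in 1-allele replicate 1, and 3.1 and 13.8 in 2-allele. Within it the peak of 1-allele replicate 1 did not overlap that of wild-type replicate 2. It also lies within 50 kb of Foxf2.

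Foxa1 and Foxa2 had peaks around the gene in most groups. Foxa1 held 5 and 5 neighbourhood peaks in wild type, 13 and 3 in NICD, 2 and 0 in 1-allele, and 3 and 2 in 2-allele, and the NICD libraries lay on either side of wild type. The merged region chr12:57535174-57536038 beyond its 3′ end was called in all 6 libraries outside 1-allele, at percentiles 47.5 and 58.8 in wild type, 70.4 and 16.2 in NICD, and 12.1 and 11.8 in 2-allele. Within it the peak of NICD replicate 2 overlapped neither the wild-type nor the 2-allele peaks. Foxa2 held 4 and 4 in wild type, 7 and 4 in NICD, 1 and 0 in 1-allele, and 1 and 0 in 2-allele. The wild-type and NICD numbers overlapped and those of both floxed groups were lower. Per 10000 listed peaks, 1-allele replicate 1 stood at 1.94 for Foxa2, beside 1.94 and 2.18 in wild type and 1.69 and 1.57 in NICD. The region chr2:148039326-148040194, beyond the 3′ end, was called at 52.5 and 37.4 in wild type, 67.7 and 50.6 in NICD, and 33.1 in 1-allele replicate 1, and in neither 2-allele list. The exact permutation test of density gave p = 0.943 for Foxa1, 0.276 for Foxa2 (adjusted p 0.539) and 0.114 for Foxa3 (adjusted p 0.356). Without 1-allele replicate 1 or 2 the exact permutation p of Foxa2 was 0.0476 or 0.019, and its adjusted p 0.245 or 0.145.

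**Figure D4:**
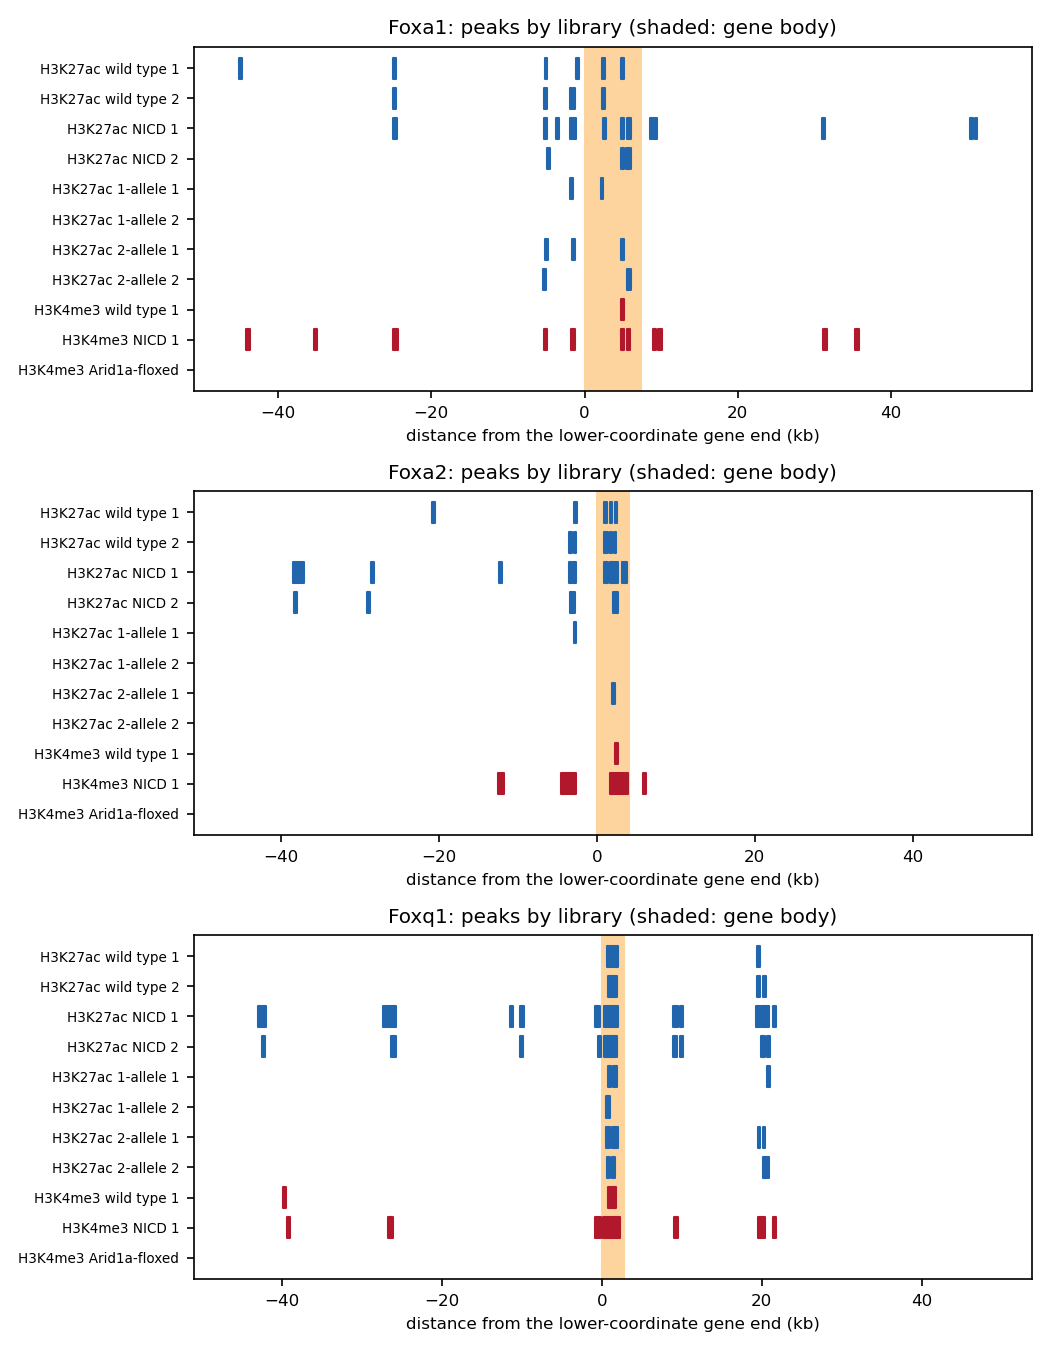
Peaks of the 11 libraries (rows, blue for H3K27ac and red for H3K4me3) around Foxa1, Foxa2 and Foxq1, by distance in kb from the lower-coordinate end of each gene (x axis), with the gene body shaded and the narrowest peaks widened to stay visible. Around Foxq1 the gene body is marked in all 8 H3K27ac rows, and most of the outlying marks lie in the 2 NICD rows.

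In merged H3K27ac regions, forkhead neighbourhoods resembled the genome. Of 45846 merged regions, 196 lay in forkhead neighbourhoods, and 142 of these were away from every gene end. Among the 142, NICD against wild type separated 20, or 14.1% beside 14.4% of all 31077 such regions, and 2 the other way, or 1.41% beside 0.66%. NICD against 1-allele separated 42, or 29.6% beside 26.4%. NICD against 2-allele separated 27, or 19.0% beside 18.3%, and 2-allele against 1-allele 9, or 6.34% beside 4.44%. No forkhead region was called in 1-allele and not in NICD (0.103% of all), in 2-allele and not in NICD (0.0998%) or in 1-allele and not in 2-allele (0.505%). All 8 libraries called 2 of the 142, or 1.41% beside 2.13%. At the equal length of 14373 peaks, 6 of the 142 separated NICD from wild type, 4.23% beside 2.36%, at Foxn2, Foxn3, Foxp1, Foxp4 and Foxq1, and 1 wild type from NICD, at Foxo6, 0.704% beside 1.64%. In the full lists 0 regions at Foxn2 and Foxp4 separated NICD from wild type, and 0 at Foxo6 wild type from NICD. The Foxp1 region, chr6:99027694-99028252, had a peak of wild-type replicate 1 at percentile 3.3 of its full list. At 14373 peaks NICD was separated from 2-allele at 5, 3.52% beside 2.28%, and 2-allele from NICD at 0, beside 0.924%.

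Genes downstream of and around the forkhead factors were followed through fixed lists, chosen from general knowledge with earlier results of these data known. Of 20 mitotic genes known as targets of FOXM1, 7 and 7 had an H3K27ac promoter peak in wild type, 16 and 15 in NICD, 2 and 1 in 1-allele, and 12 and 7 in 2-allele. The NICD libraries were above all others, and their shares of all genes called were also the highest, at 53.0% and 47.3%. Those shares were 43.1% and 40.9% in wild type, 16.1% and 25.8% in 1-allele, and 42.6% and 41.2% in 2-allele. They stand beside the library counts of the other lists below too. NICD against wild type separated 6 of 20, among them Aurkb, Bub1b, Ccnb1 and Ccnb2, beside 3.83% of all genes, and none the other way. At 14373 peaks, 2 of the 20 (Aurkb and Cdk1) were separated, beside 2.38% of all genes, with 6 and 6 called in wild type and 11 and 10 in NICD. At that length 37.3% and 36.9% of all genes were called in wild type and 41.9% and 40.0% in NICD. NICD against 1-allele separated 12, including Aurka, Birc5, Bub1b and Ccnb1, beside 18.8% of all genes, and NICD against 2-allele 3, Bub1b, Ccnb1 and Cdc20, beside 3.8%. H3K4me3 was called at 18 of the 20 in wild type, 19 in NICD and 4 in the Arid1a-floxed library, beside 47.4%, 63.5% and 19.5% of all genes.

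Of 22 FOXO targets, 18 and 16 were called in wild type, 19 and 19 in NICD, 9 and 10 in 1-allele, and 18 and 18 in 2-allele. In the full lists the stress gene Gadd45b was the only one to separate NICD from wild type, beside 3.83% of all genes. At 14373 peaks Gadd45b and Klf2 did so, beside 2.38%, and Fbxo32 separated wild type from NICD, beside 0.589%. In the full lists 7, among them Bcl2l11, Cited2, Fbxo32 and Gadd45b, separated NICD from 1-allele, beside 18.8% of all genes. Of 16 regulators of FOXO, the kinases, phosphatase and adaptors that set its place in the cell, 11 and 12 were called in wild type, 12 and 12 in NICD, 7 and 9 in 1-allele, and 12 and 12 in 2-allele. Akt1 alone separated NICD from 1-allele among them, beside 18.8% of all genes.

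Of 18 foregut factors that act beside FOXA, 10 and 10 were called in wild type, 13 and 12 in NICD, 3 and 4 in 1-allele, and 9 and 9 in 2-allele. Gata6, Nkx6-3 and Pdx1 separated NICD from wild type in the full lists, beside 3.83% of all genes. None did at 14373 peaks, beside 2.38%. At that length 9 and 10 of the list were called in wild type and 8 and 8 in NICD. Shh then separated wild type from NICD (0.589% of all genes). Gata4, Gata6 and Nkx6-3 were among 8 that separated NICD from 1-allele, beside 18.8% of all genes, and Nkx6-3 and Pdx1 separated NICD from 2-allele, beside 3.8%. Of 11 mucous cell genes linked to FOXQ1 and FOXA, 4 and 5 were called in wild type, 7 and 3 in NICD, 1 and 0 in 1-allele, and 3 and 1 in 2-allele. NICD and wild type overlapped, and Agr2, Gkn2 and Muc1 separated NICD from 1-allele, beside 18.8% of all genes. At 14373 peaks, Gkn2 and Muc1 were called in both wild-type lists and neither NICD list, beside 0.589% of all genes.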

How the data were processed

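H3K27ac (8 libraries) and H3K4me3 (3) peak lists from mouse stomach glands were analysed as deposited. Per the labels' protocols, pooled fixed epithelial pellets were sonicated and sequenced single-end, and the protocol names an H3K27ac antibody; the product used for H3K4me3 is not stated. Per the submitters' processing notes, Bowtie2, MACS2 and GRCm38 (mm10) were used. MACS version 2.0.10.20131216 made 9 of the lists, per the file headers, for each library alone and without a control, with duplicates removed, a q-value threshold of 0.05, a local background of 10 kb and an effective genome of 2.7 Gb, the human setting. The deposited values of each peak are the authors' pileup signal, −log10 p-value, −log10 q-value and fold enrichment, used here to rank and filter within a list. Both 2-allele lists give positions only, with no depth; starts were read as counted from 0. Their file order was used as strength: 1-allele replicate 2 also had a peak at 95.6% and 94.8% of the 1000 entries at the top of these lists, and at 8.4% and 11.5% of the 1000 at the bottom.

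Autosomal and sex chromosome peaks were joined to RefSeq protein-coding genes by an overlap of 1 bp or more, with Python 3.11, numpy, pandas and scipy. A peak between neighbouring genes counted for both. Counts were compared between groups by exact permutation over libraries where a p is given, with Benjamini-Hochberg adjustment over all genes tested; the overlap and test code was tested on simulated data. Named genes were Foxa1, Foxa2, Foxa3, Foxq1 and Foxm1, genes that separate groups or are called in all 8 H3K27ac libraries, the 6 with most neighbourhood peaks, the 5 smallest p, and up to 4 members per list and direction in alphabetical order. Foxo4, Foxo6, Foxj1 and single H3K4me3 examples beyond that rule were chosen after their values were seen, as were the starts of the promoter table, the lists of 14373 and 17558 peaks and the single regions described. Some genes of these counts are not reported here by name. The members and lists were chosen with earlier results of these data known. Whether libraries of a group are separate animals is not given, so a p measures only the spread between these libraries.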

Additional observations from a re-analysis of the deposited data

How the results depend on the processing

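List length moved the counts most. With every H3K27ac list shortened to the shortest (5165 peaks), the mean number of forkhead genes called was 6.0 in wild type, 6.5 in NICD, 6.0 in 1-allele and 7.0 in 2-allele. At that length 1 gene each separated wild type from NICD, 1-allele from NICD, NICD from 1-allele, 2-allele from 1-allele and 1-allele from 2-allele, and 0 separated NICD from 2-allele. Neighbourhood means were then 11.5, 17.5, 17.0 and 16.0 in the same order of groups. With lists at 14373 peaks, wild type had 16.0 genes and 56.5 neighbourhood peaks and NICD 13.0 and 58.0. There 0 genes separated NICD from wild type, 2 wild type from NICD, 1 NICD from 1-allele and 0 NICD from 2-allele. In the H3K4me3 list of NICD shortened to 17558 peaks, 25 genes were called in place of 34 and 7 in place of 15 were absent from wild type.

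Peaks with a −log10 q of at least 5 gave 15.5 genes in wild type, 4.0 in 1-allele, 2 separating NICD from wild type and 10 separating NICD from 1-allele; no value exists for 2-allele. Start only and peak centre each gave 17.0 in wild type. A window of 2.5 kb gave 10.5 in 1-allele, 16.0 in 2-allele and 1 gene separating 2-allele from 1-allele, and the added starts gave 16.0 in 2-allele. Neighbourhoods of 25 kb held 50.0 peaks in wild type, 11.5 in 1-allele and 32.5 in 2-allele, those of 100 kb 142.5, 253.5, 34.0 and 102.5 in wild type, NICD, 1-allele and 2-allele, and peaks away from every gene end 46.5, 7.5 and 25.5 in wild type, 1-allele and 2-allele. Leaving out each library in turn, the genes separating NICD from wild type ranged from 1 to 2, the reverse from 0 to 2, NICD from 1-allele from 6 to 11, NICD from 2-allele from 3 to 6 and 2-allele from 1-allele from 3 to 5. Leaving out a library removes a condition of the pattern, so these counts of separating genes can only stay or rise. The cause of the other changes was not tested.

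With the replicate block, no gene passed (smallest adjusted p 0.41, Benjamini-Hochberg over all genes), 9 forkhead genes were at an unadjusted p under 0.05, and the exact permutation test gave 0.917 for Foxa1 and 0.25 for Foxa2. For each group the density of replicate 2 was taken from that of replicate 1, gene by gene. Correlations of these differences between groups were −0.021 to 0.049, so same-numbered libraries did not deviate together. Depth is unknown for the 2-allele lists and lowest in NICD replicate 2, and counts of peaks carry no counting interval.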
